A study of Rattus norvegicus with 90 samples.

Results

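ENSRNOT00000010639 is a transcript of 1546 bases that was abundant in untreated rat liver and was almost gone 24 h after thioacetamide. It is 1 of 40071 Ensembl transcripts, and of 65166 quantified targets in all, the other 25095 targets being genomic intervals. It was chosen from its measured values, an abundant level in vehicle liver that was nearly lost at 24 h. Every comparison that holds treated or vehicle liver at 24 h is therefore a description with no test, and tests are given for 8 h alone. The tables used here do not pair this identifier with a gene, so its symbol, protein, position and sequence are not given. It was followed by identifier through the liver, kidney and heart of the same design.

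Male Sprague-Dawley rats, 10 weeks of age at purchase, received an intraperitoneal injection of saline (vehicle, 3 ml/kg), 25 mg/kg thioacetamide (low dose) or 100 mg/kg thioacetamide (high dose). The liver, kidney and heart of each rat were taken 8 h or 24 h later, so the organs are not independent samples. All rats carried a jugular vein catheter, and the vehicle groups went through the same surgery and handling. The rats of both times were sampled at the same hour of the day after 8 h without food. The 8-h rats were dosed in the morning and had no food from then on. The 24-h rats were dosed in the late afternoon and had food until the last 8 h. Comparisons between the times carry this difference. Each of the 18 combinations of organ, time and dose held 5 libraries, 30 per organ, of poly-A RNA from whole tissue. Estimated counts summed to between 16332764 and 36303248 per library, and genomic intervals took 4.08% to 28.9% of them. Since no transcript was paired with a gene here, the organ labels were not checked against marker genes.

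The liver libraries MS-1 (vehicle, 24 h) and MS-9 (low dose, 8 h) were nearly identical, and which label is right was not settled. Among the 15797 transcripts with at least 10 counts, 99.956% had a count within 1 of that in MS-9 (low dose, 8 h), and the transcript had 1752 counts in both. MS-1 is shown but left out of means, and results that use MS-9 are also given without it.

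Thioacetamide is a model hepatotoxicant. The parent compound does little harm until hepatocytes oxidise its sulfur. The products bind to proteins and lipids of the cell, and the injury begins around the central veins, where the oxidising enzymes are most abundant. The amount of a transcript in a tissue reflects its synthesis, its decay and the number of cells that carry it. In RNA from whole tissue, fewer cells of a type and less RNA per cell cannot be told apart.

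In the liver of vehicle rats at 8 h the transcript had 110.2, 121.4, 158.8, 184.0 and 249.7 CPM. CPM is the count relative to the library's total count over transcripts, scaled by the trimmed mean of M values. The mean was 164.8 ± 55.9 CPM (SD, n = 5). In vehicle rats at 24 h it had 267.2, 344.4, 409.9 and 417.4 CPM, a mean of 359.7 ± 69.8 (SD, n = 4). In CPM the 2 sets of vehicle libraries did not overlap, and the mean at 24 h was 2.18-fold that at 8 h. The excluded library MS-1, at 99.95 CPM, lay below every other vehicle library of the liver. As a near copy of MS-9 it had the same CPM as that library of the low dose at 8 h. That value lay within the range of the other low-dose libraries at 8 h, 32.1 to 106.4 CPM. It was below the lowest other vehicle library at 24 h, at 267.2 CPM. Which of the labels is right was not tested. With MS-1 the mean at 24 h was 307.8 ± 131 CPM (SD, n = 5).

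In TPM (the count corrected for transcript length, relative to the sum over all targets), the mean in vehicle liver at 24 h was 206.6 ± 72.4 (SD, n = 4), rank 499 of 25674 transcripts with a signal in that group. At 8 h it was 104.5 ± 35.7 TPM (SD, n = 5), rank 894 of 26344. In TPM the vehicle libraries of the 2 times overlapped, with 131.6 TPM in the lowest at 24 h and 149.7 TPM in the highest at 8 h. The transcript was thus among the upper 1.94% and 3.39% of detected liver transcripts at the respective times.

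**Figure D1:**
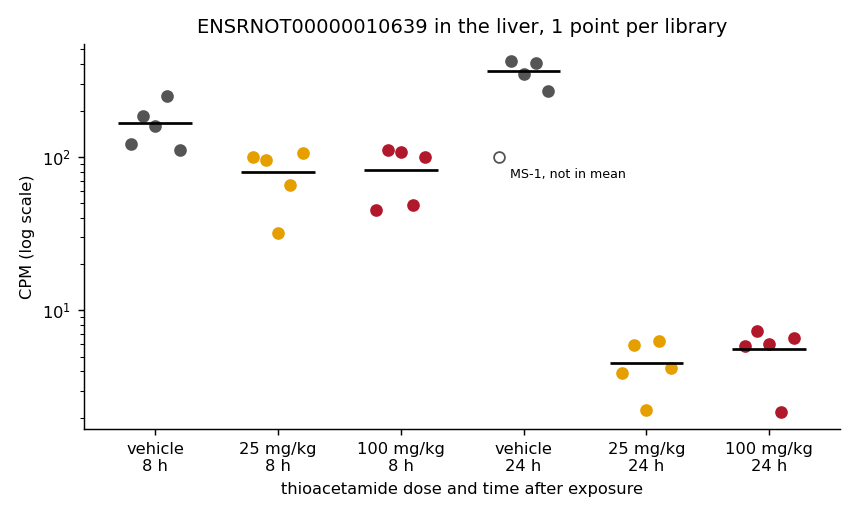
Level of ENSRNOT00000010639 in each liver library (y axis, CPM on a log scale) by dose and time after exposure (x axis), 1 point per library, with bars at the group means and the left-out library MS-1 as an open circle. The 10 libraries of treated rats at 24 h lie between 2.19 and 7.32 CPM, below the 32.1 CPM of the lowest library at 8 h.

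The comparison at 8 h asked whether the transcript was lower in treated than in vehicle liver at 8 h, in libraries that its selection did not use. The mean was lower at both doses, but the size of the difference and its test depended on the scale. TPM moved the median log2 ratio of all transcripts up by 0.218 for the high dose and 0.308 for the low dose relative to CPM. Relative to that median the transcript stood at -0.998 in TPM and -0.961 in CPM for the high dose. For the low dose it stood at -0.975 in TPM and -1.042 in CPM. The low dose gave 32.1, 65.9, 94.9, 100.0 and 106.4 CPM, a mean of 79.8 ± 30.9 (SD, n = 5). In CPM all 5 libraries lay below the lowest vehicle library, at 110.2 CPM. The mean was 48.4% of the vehicle mean, a log2 fold change of -1.04 (SE 0.326, 95% interval -1.76 to -0.33). The exact two-sided permutation test on CPM gave p = 0.00794, the smallest that 5 against 5 libraries allow. After Benjamini-Hochberg adjustment over the 4 comparisons for which it was computed, this p was 0.0159. Of these 4, 1 was the low dose at 24 h against 8 h, whose values served to choose the transcript. The adjusted p is therefore lower than the 8-h comparisons alone would give. In TPM, chosen as a scale after the data were seen, 3 of the 5 libraries lay above the lowest vehicle library, the mean was 62.8% of vehicle and the exact permutation p was 0.151. A call was set at an adjusted p of at most 0.01 together with a log2 change of at least 0.866 in size. edgeR's quasi-likelihood test across 16341 transcripts gave an adjusted p of 0.0282, which did not pass, in a comparison where 4.1% of transcripts were called lower. Without MS-9 the log2 fold change was -1.15 (SE 0.359) and edgeR's adjusted p was 0.038.

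The high dose at 8 h gave 44.8, 48.3, 100.3, 107.2 and 110.8 CPM, a mean of 82.3 ± 32.9 (SD, n = 5), or 49.9% of vehicle. Of these libraries 4 lay below all vehicle libraries and the highest exceeded the lowest vehicle library by less than 1 CPM. The log2 fold change was -0.97 (SE 0.317, 95% interval -1.67 to -0.27). The exact permutation test gave p = 0.0159 (0.0212 adjusted over the same 4 comparisons, with the same limit). In TPM 2 of the 5 libraries lay above the lowest vehicle library, the mean was 56.6% of vehicle and the exact permutation p was 0.0556. edgeR's adjusted p over 16468 transcripts was 0.0265 and did not pass the threshold, where 7.75% of transcripts were called lower. By size the difference had rank 1547 from the largest fall among all transcripts tested. DESeq2, run as an alternative, placed both 8-h comparisons with vehicle past the threshold, with a log2 fold change of -0.98 and an adjusted p of 0.00631 for the high dose, and -1.06 with an adjusted p of 0.00464 for the low dose. limma on log2(TPM + 1) had the same sign but did not pass the threshold. It gave -0.83 and an adjusted p of 0.0505 for the high dose, and -0.78 and an adjusted p of 0.158 for the low dose.

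No difference between the doses was detectable at 8 h. The libraries of the high and low dose overlapped, with a log2 difference of 0.06 (SE 0.351, 95% interval -0.71 to 0.83, adjusted p = 0.937 by edgeR, exact permutation p = 0.897). Called lower in this comparison were 0.666% of transcripts. The interval does not exclude a difference in either direction, and the sign changed with the scaling, to -0.05 on log2(TPM + 1).

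The levels at 24 h and 8 h after the low dose are described next. The near loss at 24 h is what the transcript was chosen for, so no test is given. At 24 h the low dose left 2.25, 3.92, 4.21, 5.94 and 6.35 CPM, from 56 to 219 counts per library, a mean of 4.54 ± 1.66 CPM (SD, n = 5). The highest of these libraries was below the lowest at 8 h, 32.1 CPM. The mean was 5.68% of that at 8 h, a 17.6-fold fall. The fitted log2 fold change was -4.17, and -4.02 without MS-9. It ranked 2 from the largest fall among 16792 transcripts, of which 2.22% were called lower. In TPM the mean was 6.65% of that at 8 h, and the groups were again apart.

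Transcripts of like abundance, those within 2-fold of its TPM in vehicle liver, moved little over the same interval. Their median log2 fold change was 0.07 and the lowest was -2.66, so none of these 728 transcripts fell as far. Against vehicle at 8 h the transcript was less apart from them, as 83 of 727 had a lower log2 fold change at the high dose and 57 of 728 at the low dose.

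**Figure D2:**
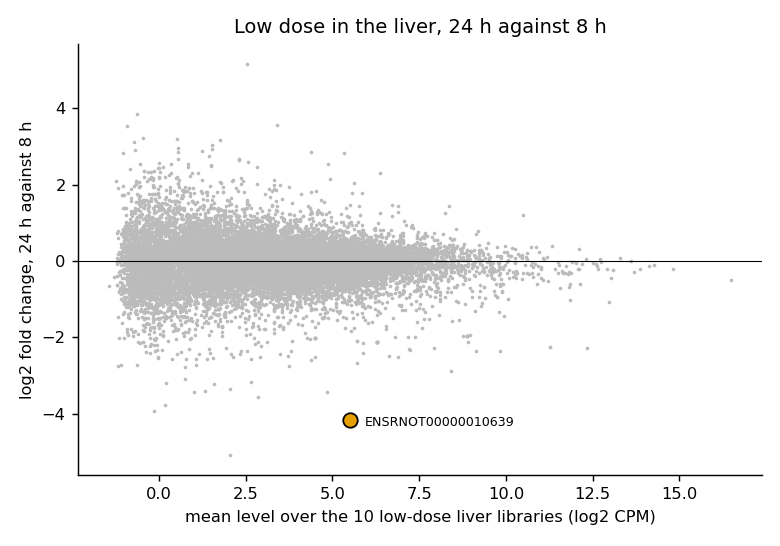
Log2 fold change between 24 h and 8 h after the low dose (y axis) against the mean level over the 10 low-dose liver libraries (x axis, log2 CPM), 1 grey point per liver transcript tested. ENSRNOT00000010639, the marked point at -4.17, lies below the other transcripts of its abundance.

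The level against vehicle at 24 h also served to choose the transcript. At 24 h the high dose left 2.19, 5.86, 6.001, 6.61 and 7.32 CPM, from 54 to 236 counts per library, a mean of 5.60 ± 1.99 (SD, n = 5). No treated library came near the vehicle libraries, of which the lowest held 267.2 CPM. The mean was 1.56% of vehicle, 64.3-fold lower. The fitted log2 fold change of -6.07 ranked 6 from the largest fall among 17137 transcripts, of which 13.6% were called lower. The low dose, compared with the same vehicle libraries, left 1.26%, 79.3-fold lower, with a fitted log2 fold change of -6.35 and rank 3 of 16754, where 4.15% were called lower. With MS-1 kept among the vehicle libraries the remaining shares were 1.82% and 1.47% for the high and low dose.

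The remaining share depended on the scale. In TPM it was 3.19% after the high dose (31.4-fold lower) and 2.11% after the low dose (47.3-fold lower). TPM also moved the median log2 ratio of all transcripts at 24 h up by 1.004 for the high dose and by 0.77 for the low dose relative to CPM. Relative to that median the transcript stood at -6.05 in TPM and -6.08 in CPM for the high dose, and at -6.37 and -6.34 for the low dose. The distance from the median transcript was therefore nearly the same on both scales. The transcript's rank differed with the set and the measure compared, which changed together. The ranks given above were of fitted log2 fold changes among the transcripts that passed the filter. Among all transcripts with a mean of 1 TPM or more in the groups compared, the ratio of means ranked 34 in TPM and 38 in CPM for the high dose, 26 and 30 for the low dose, and 46 and 62 for the low dose between times.

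Among the 1336 liver transcripts with at least 100 CPM in vehicle rats at 24 h, ENSRNOT00000010639 was the sole transcript with less than 5% of its vehicle level left after the low dose. The next lowest kept 6.89% and the median transcript kept 72.8%. After the high dose 11 of these transcripts were under 5%, the next lowest after ENSRNOT00000010639 kept 2.3% and the median kept 50.2%. In TPM, a scale added here after the data were seen, it was again the lowest at both doses, with 1 transcript under 5% after the low dose and 3 after the high dose. In the abundance order of the liver, it moved from rank 499 in vehicle rats to rank 9756 of 27348 after the low dose and rank 8932 of 27899 after the high dose.

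**Figure D3:**
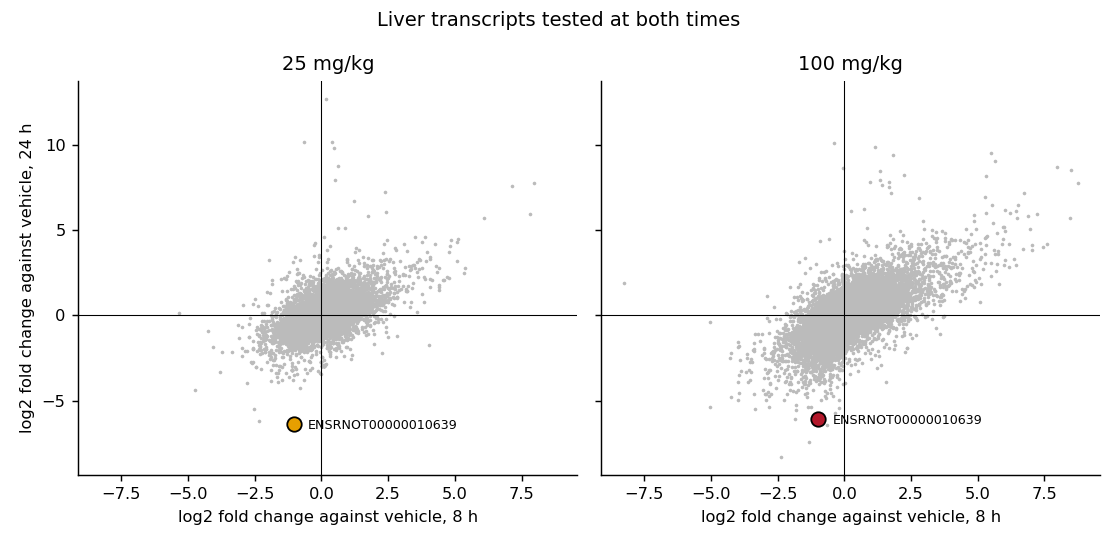
Log2 fold change against vehicle at 24 h (y axis) and at 8 h (x axis) for liver transcripts tested at both times, after 25 mg/kg (left) and 100 mg/kg (right), 1 grey point per transcript. The marked transcript sits near -1 at 8 h and below -6 at 24 h at both doses.

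In CPM the 2 doses left similar amounts at 24 h. The mean after the high dose was 1.23-fold that after the low dose, a log2 ratio of 0.30. The ranges of 2.19 to 7.32 and 2.25 to 6.35 CPM overlapped nearly in full. In TPM the mean after the high dose was 151% of that after the low dose, and the ranges again overlapped. The lowest library of the high dose, MS-91, was far below the other 4. Without it the mean was 6.45 ± 0.667 CPM (SD, n = 4) and the range was 5.86 to 7.32 CPM. The near-full overlap in CPM therefore rested on MS-91. Genomic intervals took 14.8% of the counts in MS-91, the highest share in its group. The part of this in the low value was not tested. Within the high dose, the level at 24 h was 6.8% of that at 8 h, 14.7-fold lower.

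By mean CPM, from highest to lowest, the 6 liver groups were vehicle at 24 h, vehicle at 8 h, high dose at 8 h, low dose at 8 h, high dose at 24 h and low dose at 24 h. In CPM, neighbours overlapped between vehicle and high dose at 8 h, between the doses at 8 h and between the doses at 24 h. They were apart between the vehicle groups and between the treated groups at 8 h and at 24 h, where the ratio of neighbouring means was 14.3. By mean TPM the low dose at 8 h (65.7) stood above the high dose at 8 h (59.2), and the vehicle groups overlapped.

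In CPM the transcript varied more between rats than the median transcript of like abundance in each of the 6 liver groups, although 1 library decided this for the high dose at 24 h. Its coefficient of variation of CPM in vehicle rats was 33.9% at 8 h, against a median of 17.1% for transcripts within 2-fold of its TPM, of which 11.6% varied more. At 24 h it was 19.4% in vehicle liver, against a median of 12.6%. In treated rats it ran from 35.6% to 39.9%, against medians of 12.4% to 16.8%. The value of 35.6% for the high dose at 24 h rested on MS-91, and without it was 10.3%, under the median of 16.2% for like transcripts over all 5 libraries. The difference at 8 h is known only within the intervals above.

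Outside the liver the transcript was close to undetectable. In the kidneys of vehicle rats it had 38 counts over 10 libraries, at most 8 per library and 0 in 1 library. This was 0.152 CPM without further scaling (exact Poisson 95% interval 0.107 to 0.208, counting error only), or 0.120 ± 0.0867 TPM (SD, n = 10). In the hearts it had 19 counts over 10 libraries, at most 6 per library and 0 in 4 libraries. This was 0.0773 CPM (0.0465 to 0.121), or 0.0557 ± 0.0675 TPM (SD, n = 10). Vehicle liver held 149.9 ± 74.1 TPM (SD, n = 9), a level 1250-fold that of kidney and 2690-fold that of heart.

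Such a preference for the liver was not exceptional among its abundant transcripts. Of 1487 transcripts with at least 50 TPM in vehicle liver, 132 had a lower kidney-to-liver ratio and 225 a lower heart-to-liver ratio. The median transcript of this set stood at 94.5% of its liver level in kidney and at 35.4% in heart.

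At counts of 0 to 9 per library, no response of the kidney or heart could be measured, and the transcript passed the filter on low counts in 0 of the 8 comparisons of those organs. Summed over each group of 5 kidneys, the counts were 16 for vehicle, 21 for the low dose and 27 for the high dose at 8 h, and 22, 23 and 28 at 24 h. In the heart they were 8, 16 and 7 at 8 h, and 11, 13 and 10 at 24 h. These sums are not scaled to depth and no dose was compared in them. On the TPM scale, the levels left in treated liver at 24 h still exceeded every kidney and heart library.

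**Figure D4:**
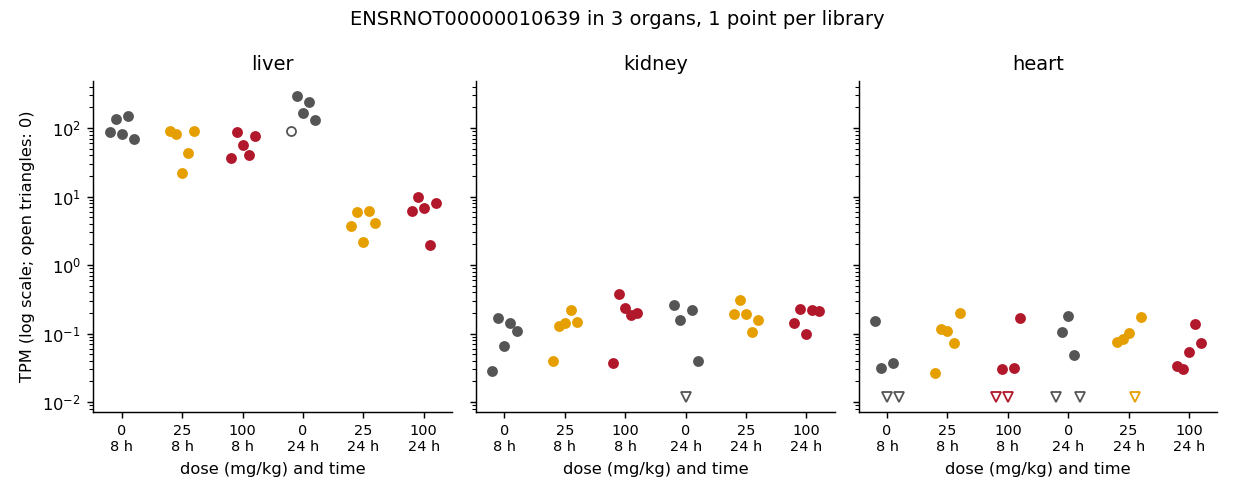
Level of ENSRNOT00000010639 in each library of the liver, kidney and heart (y axis, TPM on a log scale, open triangles for libraries at 0) by dose and time (x axis), 1 point per library. Kidney libraries reach at most 0.374 TPM and heart libraries at most 0.198 TPM, below every liver library, treated ones at 24 h included.

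The transcripts whose pattern was most like it were ranked by Pearson's r of log2(CPM + 1) over the 29 liver libraries, among the 13121 transcripts whose mean reached 2 CPM. These correlations are descriptions, since the 10 treated libraries at 24 h sat apart from the other 19 and all values of a library share its depth. In all, 14 transcripts reached 0.9. The first 5 were ENSRNOT00000022628, ENSRNOT00000041908, ENSRNOT00000084334, ENSRNOT00000076464 and ENSRNOT00000046857, with r from 0.91 to 0.92. Over the 19 libraries other than treated ones at 24 h, r was 0.51 to 0.73, so much of the likeness rested on the late fall.

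None of the 5 fell as far at 24 h. ENSRNOT00000041908, at 74.5 CPM in vehicle liver at 24 h, kept 8.44% after the low dose and 4.82% after the high dose. ENSRNOT00000084334 kept 8.13% of 19.2 CPM after the low dose and 6.55% after the high dose. ENSRNOT00000022628 kept 10.7% and 9.8% of 443.8 CPM, with 253.1, 230.5 and 284.2 CPM at 8 h for vehicle, low and high dose. In vehicle rats it was higher in kidney than in liver, at 286.0 against 149.1 TPM. The other two, ENSRNOT00000076464 and ENSRNOT00000046857, were more abundant, at 1385 and 6444 CPM, and kept 25.1% to 35.9% over both doses.

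Which transcripts came first depended on the measure. Spearman's rho shared 0 of the 5 and placed ENSRNOT00000015316 first, at 0.92. Restricting the comparison to the 15 libraries at 8 h also shared 0 of the 5, with ENSRNOT00000041341 first at 0.89, while leaving out MS-9 shared 4.

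**Figure D5:**
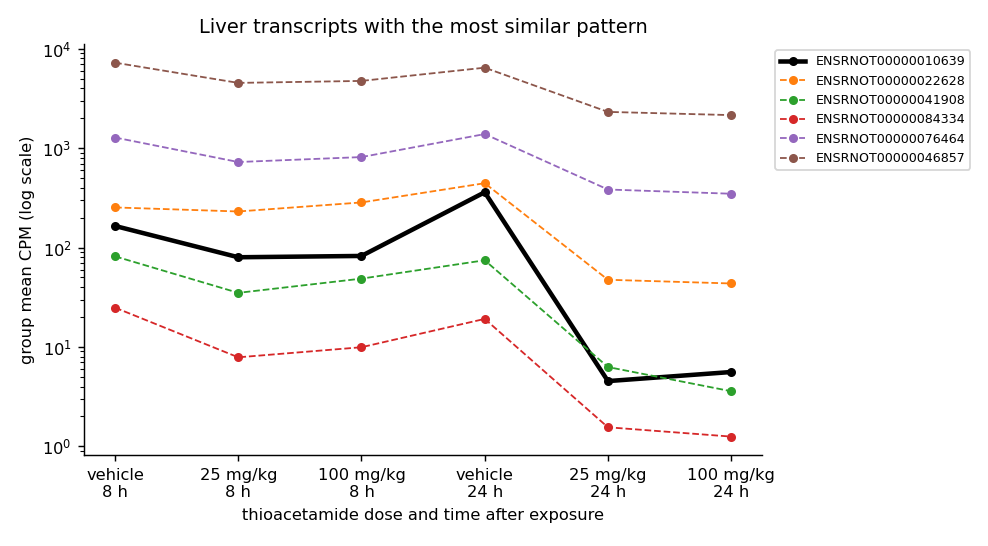
Group mean CPM in the liver (y axis, log scale) by dose and time (x axis) for ENSRNOT00000010639 (thick line) and the 5 transcripts with the highest r over 29 libraries (dashed lines); lines only join the groups of a transcript. All 6 are lower in treated liver at 24 h than in vehicle liver, and ENSRNOT00000010639 falls the most.

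The estimated count of ENSRNOT00000010639 was a whole number (within 1e-06) in all 90 libraries, whereas 39.7% of the 13255 transcripts with a mean count of at least 100 were whole throughout. A fractional count can arise when kallisto divides reads between targets, and no fraction was seen for this transcript.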

How the data were processed

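Poly-A RNA libraries (stranded, 75-bp paired-end) from liver, kidney and heart were quantified by the authors with kallisto 0.42.2 on the Rnor 6.0 transcriptome, per the labels. Each deposited file gave estimated counts and TPM per target. No replicates were pooled. The transcript and all lists were chosen with earlier results of these data known. For each comparison, the deposited estimated counts of the 40071 transcripts were rounded, filtered (filterByExpr), scaled by TMM and tested with edgeR 4.0.16 (R 4.3.3; quasi-likelihood, 2 groups per fit, Benjamini-Hochberg over all transcripts tested). The transcript alone was compared by two-sided exact permutation tests of mean CPM (scipy 1.17.1). The p-values for 24 h against 8 h at the low dose were computed but are not given, since that level was part of the choice. The permutation p of that comparison did enter the adjustment over 4 comparisons. The steps were tested on simulated data. Alternatives were DESeq2 1.42.0, limma 3.58.1 with TPM on the log2 scale at a pseudocount of 1 or 0.1, no filter, larger fits, all targets and leaving out each library. Named transcripts were the 5 with the highest r. Library totals were 16332764 to 36303248, and intervals from counts cover counting error only. The labels give 5 libraries per group, and the paper gives 5 rats per group.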

Additional observations from a re-analysis of the deposited data

Results flagged for a closer look

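In 3 of the 18 groups of libraries a single library lay far from the others by Dixon's criterion. For normally distributed values chance meets it in about 1 of 20 groups, a rate that need not hold for heart counts near 0. Among high-dose livers at 24 h, the lowest library held 2.19 CPM, against 5.86 to 7.32 CPM in the other 4. In the heart of vehicle rats at 8 h the highest library held 0.21 CPM, which came from 6 counts. Among high-dose hearts at 8 h, the highest library held 0.234 CPM, from 5 counts.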

How the results depend on the processing

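Against vehicle at 8 h, DESeq2 called the transcript lower, at -0.98 for the high dose and -1.055 for the low dose, and no other setting did. The adjusted p was 0.0505 and 0.0515 for the high dose and 0.158 and 0.159 for the low dose with limma on TPM (pseudocounts 1 and 0.1). The log2 difference between the doses at 8 h was -0.048 on log2(TPM + 1) and -0.046 on log2(TPM + 0.1), with the opposite sign. The log2 ratios of means at 24 h in TPM were -4.97 for high dose against vehicle (-4.99 with TPM over transcripts alone), -5.56 for low dose against vehicle (-5.59) and -3.17 for high dose against the same dose at 8 h (-3.17). Leaving out each library gave -1.13 to -0.82 for high dose and -1.17 to -0.84 for low dose against vehicle at 8 h, -0.14 to 0.21 between the doses at 8 h, and -4.37 to -4.00 for the low dose between times. It gave -6.12 to -5.80 for high dose and -6.46 to -6.14 for low dose against vehicle at 24 h, -4.03 to -3.67 for the high dose between times, 0.13 to 0.51 between the doses at 24 h and 1.011 to 1.32 between the vehicle groups.

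Counts of transcripts called lower moved by over 1.5 times in places. They were 1277 for high dose at 8 h (471 and 555 with limma at the pseudocounts 1 and 0.1, 2127 with all targets), 670 for low dose at 8 h (143 and 182 with limma), 112 between the doses at 8 h (230 with DESeq2, 16 and 15 with limma, 173 with all targets) and 372 for the low dose between times (560 with DESeq2, 243 without a filter, 79 and 95 with limma). Leaving out a library gave 32 to 120 between the doses at 8 h and 196 to 395 for the low dose between times. Between the doses it was 32 to 62 without any library other than MS-8 or MS-9, and between times it was 196 without MS-9, 229 without MS-2 and 245 without MS-22. Of all called transcripts, the lower ones made up 38.4% for high dose at 8 h (19.4% with limma), 41.5% for low dose at 8 h (10.7%), 27.8% between the doses (21.1%) and 53.6% for the low dose between times (12.7%). With limma on log2(TPM + 1) the median of all transcripts moved by 0.162, 0.25 and 0.262 on the log2 scale in the first, second and last of these. Beyond these settings the cause was not tested. The groups within an organ held different rats, so these comparisons had no pairs. The organs came from the same rats, but the labels name no animal, and no analysis paired by rat was made. The other settings for kidney and heart, and the test of liver against kidney, were not run because the transcript did not pass the filter there.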
